A study of Drosophila melanogaster with 6 samples.

Results

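Long non-coding RNAs were followed in brains of Drosophila melanogaster pupae of 2 genotypes, wild type (WT) and TetAXXC. Genes described here are the 62 whose symbol begins with lncRNA: and whose level, averaged over all 6 libraries, reached 5 CPM (the gene's count per 1000000 counts of the library). They were taken from 1915 such genes, with roX1 and roX2 left aside, in a table of 17807 genes. The members were thus chosen by their mean level over both genotypes, which is described without a test. Of the other 1853 lncRNA genes, 338 had no count in any library, 1397 had a mean above 0 and under 1 CPM, and 118 had a mean of 1 to under 5 CPM. Just inside the minimum lay lncRNA:CR45018 and lncRNA:CR43943, at 5.25 and 5.13 CPM. Just outside it lay lncRNA:IBIN, an RNA known to be induced by infection, at 4.96 CPM, and lncRNA:CR44042 at 4.70 CPM.

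Each genotype was represented by 3 libraries that the labels call independent biological replicates, made from whole brains dissected 24 h after puparium formation. The labels give 30 brains for each genotype without saying whether this is per library. In TetAXXC, targeted mutations were placed in the CXXC zinc finger domain of Tet, using CRISPR/Cas9 cutting and repair from a template in a nos-Cas9 stock, after which a piggyBac cross removed the DsRed marker. Whether the pupae were sorted by sex is not given in the sources used here. How many edited lines were sequenced, and from which stock the WT flies came, is not stated either, so other differences between the stocks cannot be told apart from the edit. RNA was selected with oligo dT, so the counts describe polyadenylated RNA, and a strand-specific kit was used.

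A long non-coding RNA is transcribed like a messenger RNA, and often spliced and polyadenylated, but has no long open reading frame. Some act as RNA molecules, by holding proteins at a place in the cell, and others serve as the precursor of microRNAs or small nucleolar RNAs. Many in the fly are expressed in the nervous system or in the testis, and for most of them no function is known. Tet proteins oxidise methylated bases, and the CXXC domain is a DNA-binding domain of the family.

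Libraries held from 17861742 to 19521285 counts, and the members together took from 0.719% to 0.772% of them. Markers of neurons were abundant, with a summed level of 4854 to 5939 CPM in the WT libraries and 5086 to 5892 CPM in the TetAXXC libraries, and 0 of the 10 genes passed the test. Markers of testis were higher in TetAXXC than in WT for 21 of the 26 that could be tested. Of 7 glia markers 4 were lower (alrm, Gat, moody and wrapper), as were 2 of the 7 fat body and 2 of the 4 retina markers tested, and 0 of the hemocyte, muscle and ring gland markers passed. With libraries paired by replicate number, 4 fat body markers and 1 muscle marker were lower. Tet itself was at 787 ± 88.7 CPM in WT against 867 ± 66.1 CPM in TetAXXC (SD, n = 3 each), with an edgeR adjusted p of 0.499. Counts per gene do not resolve the edited domain, so they do not check the labels.

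One member accounted for most of the counts. lncRNA:CR42862 (FBgn0262109, chromosome 3L, 224106 to 230964, plus strand) took 76.7% of all member counts and ranked 4 among all genes by mean CPM. It had 110443, 101149 and 99724 counts in WT replicates 1, 2 and 3 and 104777, 112852 and 108169 counts in the TetAXXC replicates. The groups overlapped, with means of 5649 ± 143 and 5708 ± 212 CPM (SD, n = 3 each; edgeR, adjusted p = 0.972). It shares 246 bases of exon on the same strand with CG33229, which was at 103 ± 6.49 CPM in WT against 103 ± 15.3 CPM in TetAXXC. How reads from the shared bases were assigned is not given in the sources used here.

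**Figure D1:**
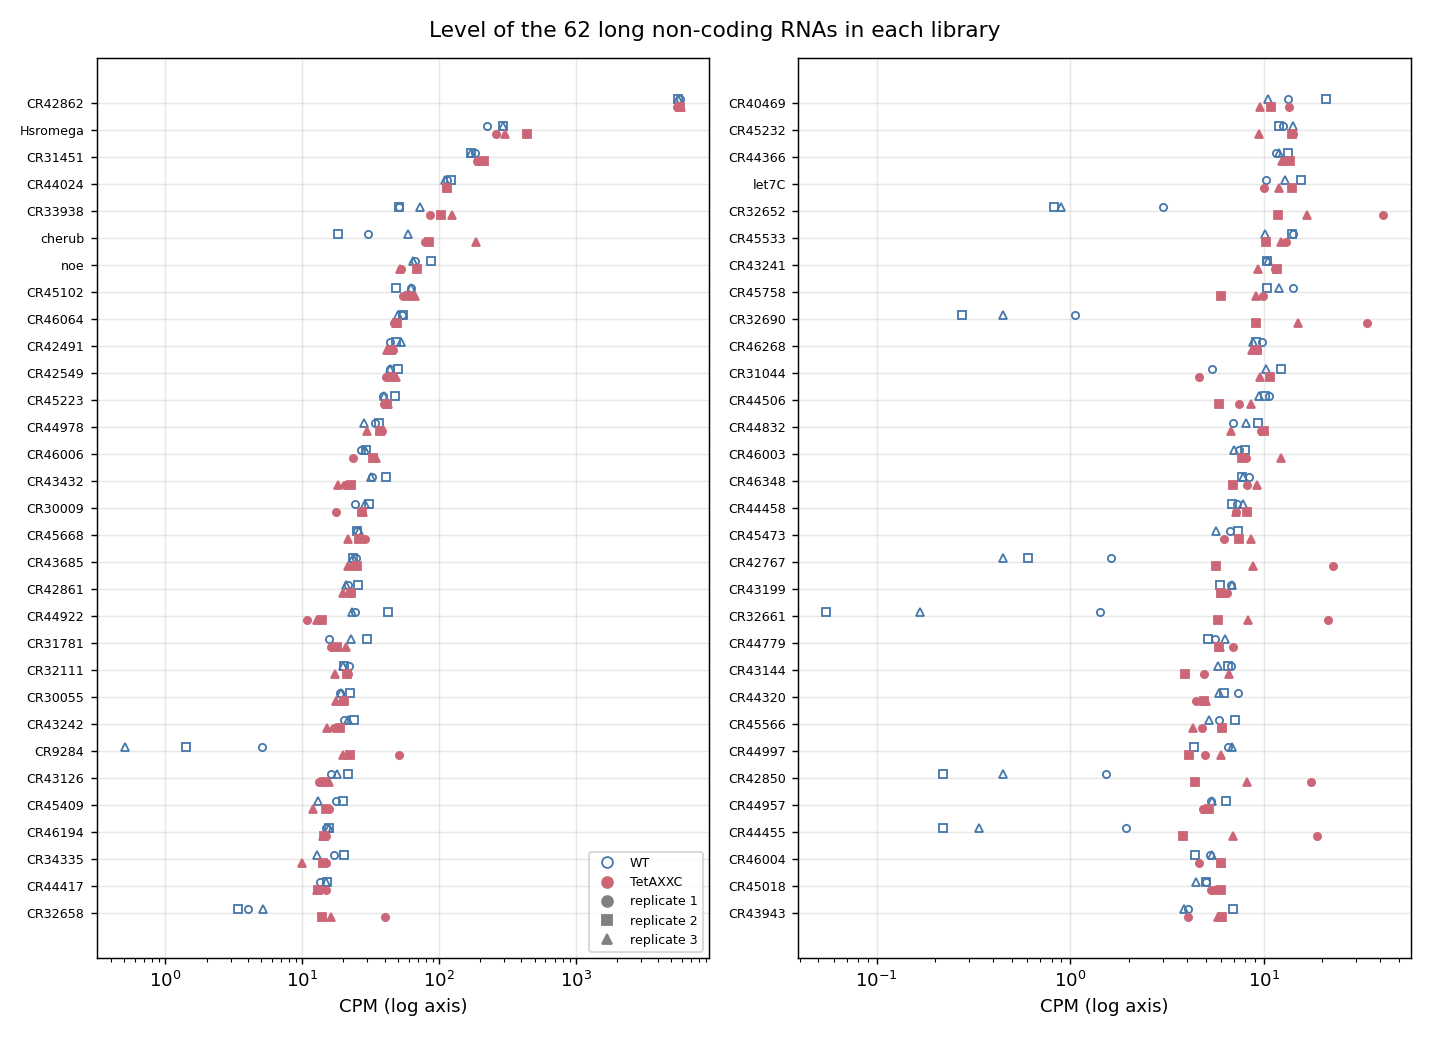
Level of each of the 62 long non-coding RNAs in CPM on a log axis, with 1 symbol per library (open blue, WT; filled red, TetAXXC; shape, replicate number), ordered by mean level. Most rows form 1 tight cluster of 6 symbols, whereas in 8 rows the WT symbols lie far to the left of the TetAXXC symbols.

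The remaining levels spread widely. A mean of at least 50 CPM was reached by 9 members, 30 lay between 10 and 50 CPM, and 23 lay between 5 and 10 CPM, with a median of 13.5 CPM over the 62. Divided by merged exon length, so that genes can be compared, levels ran from 0.400 to 1035 CPM per kb with a median of 9.86. After lncRNA:CR42862, the highest levels per length were those of lncRNA:CR33938 at 161, lncRNA:CR31451 at 120, lncRNA:CR42491 at 62.01, lncRNA:CR40469 at 61.3 and lncRNA:noe at 60.7 CPM per kb. They were followed by lncRNA:CR44024 at 43.3, lncRNA:CR45102 at 41.4, lncRNA:CR34335 at 41.1 and lncRNA:CR42861 at 40.4 CPM per kb. The order within the group from lncRNA:CR42491 to lncRNA:noe, and within that from lncRNA:CR44024 to lncRNA:CR42861, is not resolved, since these levels lie closer together than replicates did. lncRNA:CR40469, with 214 exonic bases, ranged from 9.61 to 21.0 CPM over the libraries. lncRNA:Hsromega, which ranked 2 by CPM, ranked 21 per kb at 14.0, because its annotated length of 21710 bases is the longest of the members.

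The spread between WT replicates was as uneven as the levels. Among the 52 members with a WT mean of at least 5 CPM, the SD divided by the mean had a median of 10.6%. It was 59.0% for lncRNA:cherub and 37.9% for lncRNA:CR31044, but 0.763% for lncRNA:CR43241 and 2.52% for lncRNA:CR42862. The low value of lncRNA:CR43241 was not matched in TetAXXC, where its spread was larger. That value rests on far fewer counts than the value of lncRNA:CR42862, so it does not show a steadier RNA.

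In the genome, the members were distributed as 8 on chromosome 2L, 11 on 2R, 11 on 3L, 12 on 3R, 1 on 4 and 19 on X. A single exon was annotated for 29 of them, and the median merged exon length was 1520 bases, against 603 bases for the lncRNA genes below the minimum. Exon bases were shared with another gene, small RNAs aside, by 20 members, of which 10 did so on the same strand, 12 on the opposite strand and 2 on both. A further 7 lay inside another gene without shared exon bases, such as lncRNA:noe inside blot, lncRNA:CR44978 inside Lar and lncRNA:CR34335 inside DIP-alpha. The same-strand overlaps with the largest share of the member's exons were those of lncRNA:CR46268 with CG17490 (55.5%) and lncRNA:CR42491 with RpL22 (50.5%), and CG17490 was at 0 in all libraries. For these genes the count depends on how the authors' counting treated shared bases.

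The genotypes were compared over all 11198 genes that passed the count filter, with edgeR's quasi-likelihood test and Benjamini-Hochberg adjustment over all of them. In that test 15.2% of all genes passed an adjusted p of 0.05, with 12.1% higher and 3.17% lower in TetAXXC. All 62 members were tested. Of these, 11 passed (17.7%), 9 higher (14.5%) and 2 lower (3.23%), so their shares were near those of all genes tested. Of all genes averaging 5 CPM or more, as the members do, 9.81% passed, 5.74% higher and 4.06% lower. Beside these, the share of members was larger for higher genes and slightly smaller for lower genes. The median log2 fold change was -0.04 over the members and 0.0041 over all genes tested. An unadjusted p under 0.05 was found for 19 members, a count that cannot be judged here because the share over all genes at that p is not given.

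These shares rest on how the members were chosen. Of the 62, 10 had a WT mean under 5 CPM, and 8 of those 10 were among the 9 called higher. They reached the minimum only through the TetAXXC libraries, so they had to be higher there, and their number supports nothing about lncRNAs. With the minimum of 5 CPM set on the WT libraries instead, there were 55 members, of which 1 was higher and 2 were lower (5.45% called). Among lncRNA genes under 5 CPM that passed the count filter, 21 of 225 were higher (9.33%) and 2 were lower (0.889%). The shares of all genes chosen by either of these rules are not given here, so these counts are a description only.

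**Figure D2:**
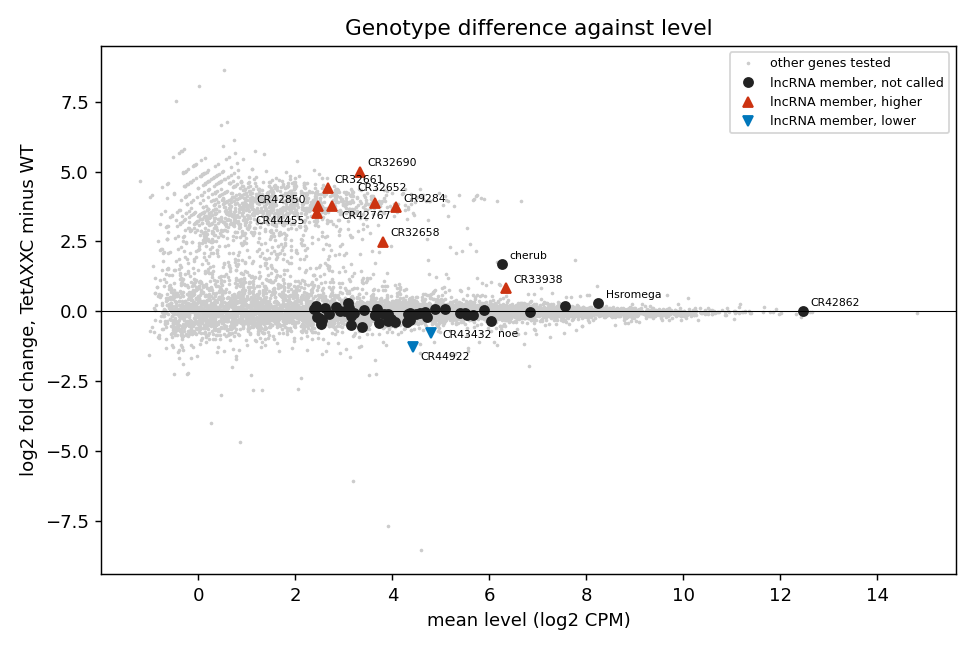
Log2 fold change of TetAXXC minus WT against mean level in log2 CPM for the genes tested by edgeR (grey) and for the 62 long non-coding RNAs (large symbols; up triangles higher and down triangles lower at an adjusted p under 0.05). The raised members form a low-abundance group between 2.49 and 5.002, apart from lncRNA:CR33938 at 0.84, while most members lie near 0.

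Among the 52 members with a WT mean of at least 5 CPM, lncRNA:CR33938 was the one called higher. This RNA of 505 exonic bases (FBgn0063127, chromosome 3R, 6699560 to 6700164, minus strand) has no function stated in the sources used here. It had 965, 931 and 1291 counts in WT replicates 1, 2 and 3 and 1640, 2004 and 2299 counts in the TetAXXC replicates. All 3 TetAXXC values lay above all WT values, and replicate 3 was the highest of each group. The mean went from 58.1 ± 12.3 to 104 ± 19.7 CPM (SD, n = 3 each), and log2 of the fold was 0.84 with a standard error of 0.18 (edgeR, adjusted p = 0.0268). Within the replicate numbers the TetAXXC level was 1.69, 2.01 and 1.73 times the WT level. The nearest tested gene was the cuticle protein gene Ccp84Ad, 6033 bases away on the other strand, at 1.006 ± 1.65 and 1.03 ± 0.724 CPM. The call was lost when WT replicate 1, 2 or 3 or TetAXXC replicate 3 was left out, with adjusted p from 0.0647 to 0.108.

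Both members called lower are single-exon genes without overlap to another gene. lncRNA:CR43432 (FBgn0263380, lncRNA:marge in the reference annotation, chromosome 3L, 14976626 to 14977631, minus strand) had 619, 741 and 565 counts in WT and 395, 447 and 334 counts in TetAXXC, with no overlap between the groups. It fell from 35.0 ± 4.97 to 20.6 ± 2.38 CPM (SD, n = 3 each), and log2 of the fold was -0.77 with a standard error of 0.12 (edgeR, adjusted p = 0.0167). The ratio of TetAXXC to WT was 0.633, 0.563 and 0.573 for numbers 1, 2 and 3. Leaving out WT replicate 2 or WT replicate 3 lost the call of lncRNA:CR43432, with edgeR adjusted p of 0.0816 and 0.0579. Its nearest tested neighbour, Ocho, a gene of the Bearded family that modulates Notch signalling, lies 586 bases away on the other strand. Ocho was at 1.08 ± 0.206 CPM in WT against 0.863 ± 0.304 CPM in TetAXXC, with an edgeR adjusted p of 0.709.

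lncRNA:CR44922 (FBgn0266227, chromosome 3R, 4375084 to 4377600, plus strand) had 465, 775 and 415 counts in WT and 207, 274 and 235 counts in TetAXXC. The groups did not overlap, but WT replicate 2 stood well above the other WT libraries. The level went from 30.1 ± 10.8 to 12.5 ± 1.63 CPM (SD, n = 3 each), and log2 of the fold was -1.27 with a standard error of 0.24 (edgeR, adjusted p = 0.0191). The call was lost when WT replicate 2, WT replicate 3 or TetAXXC replicate 3 was left out, with adjusted p of 0.0615, 0.0683 and 0.0567. Its neighbour Sfxn1-3, a sideroflexin gene 1000 bases away on the same strand, was at 47.9 ± 5.69 and 55.6 ± 7.08 CPM, with an adjusted p of 0.318. Under limma-voom, which called 1.16% of all genes and 1 member, lncRNA:CR43432 kept its call, with an adjusted p of 0.0417, and lncRNA:CR44922 did not, with 0.0904.

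Of 15 lncRNAs searched for by name because of a role known from earlier work, 4 were members, and they are described whatever their values. lncRNA:cherub (FBgn0262972, chromosome 3R, 11247631 to 11256123, minus strand) is an RNA of neural stem cells, the neuroblasts. It is segregated unequally when these cells divide, and binds the RNA-binding protein Syncrip, the product of Syp. It had 575, 332 and 1063 counts in WT and 1508, 1660 and 3438 counts in TetAXXC. Each TetAXXC library lay above every WT library, and replicate 3 was the highest in each group. The means were 36.0 ± 21.2 and 117 ± 60.6 CPM (SD, n = 3 each). Log2 of the fold was 1.69 with a standard error of 0.49, not past the threshold (edgeR, adjusted p = 0.0656).

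The outcome for lncRNA:cherub depended on whether replicate numbers were paired. Libraries with the same number deviated together, as described with the processing, but the labels state no pairing. TetAXXC was 2.60, 4.67 and 3.14 times WT for numbers 1, 2 and 3. Blocking on the number in edgeR gave 1.72 in log2 and an adjusted p of 3.23e-05. DESeq2, which called 17% of its genes and 12 members, gave 0.0466. Over all alternatives its adjusted p ran from 3.23e-05 to 0.177. The neighbour CG5214, 769 bases away on the other strand, was at 114 ± 7.66 and 113 ± 1.39 CPM.

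**Figure D3:**
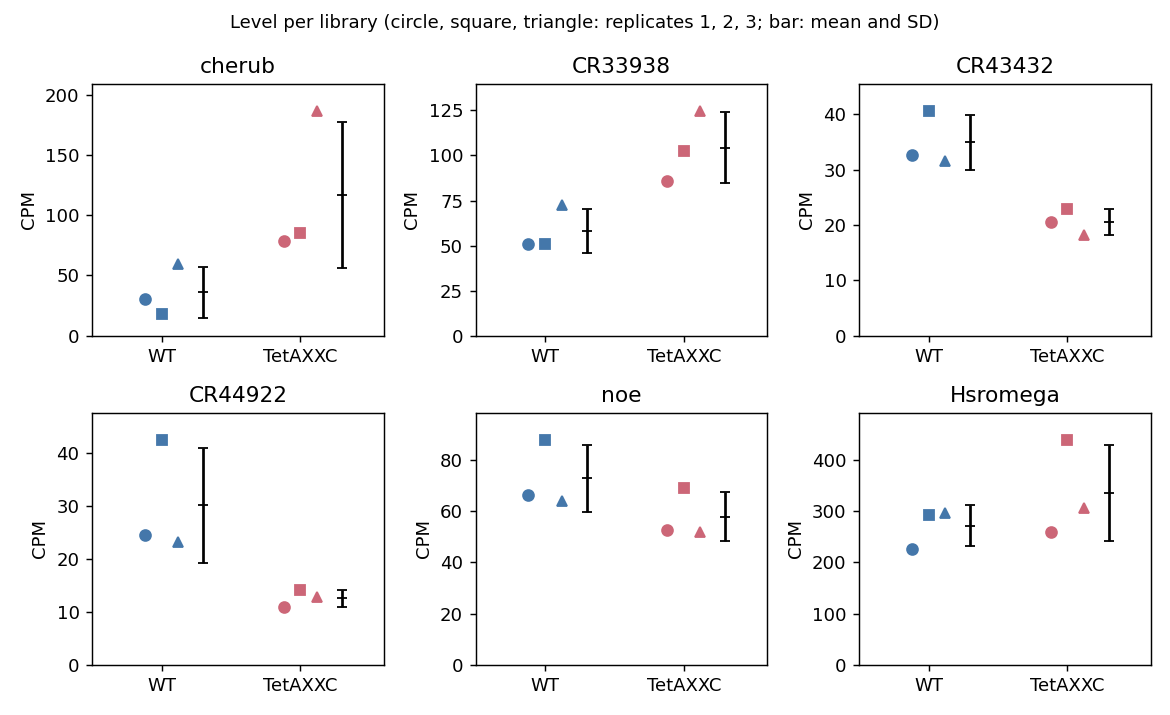
Level in CPM in each library for 6 long non-coding RNAs (blue, WT; red, TetAXXC; circle, square and triangle, replicates 1, 2 and 3), with the mean and SD as bars. For cherub, CR33938, CR43432 and CR44922 the genotypes do not overlap, whereas for noe and Hsromega they do.

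Markers of neuroblasts were set beside lncRNA:cherub. The 6 markers summed to 886 to 1475 CPM in WT and 1176 to 1782 CPM in TetAXXC, most of it from pros, which neurons and glia also express, and none was at 0. Of the 6, 1 passed the test, wor, a transcription factor gene of neuroblasts. It rose from 0.704 ± 0.342 to 2.43 ± 0.742 CPM (SD, n = 3 each), with an edgeR adjusted p of 0.0482. The proneural gene ase was at 1.71 ± 0.842 and 4.20 ± 1.11 CPM with an adjusted p of 0.0972. The neuroblast genes dpn and mira had adjusted p of 0.801 and 0.229. With replicate numbers blocked, as in the paired value of lncRNA:cherub, 3 of the 6 were higher, namely wor, ase and mira with adjusted p of 0.0169, 0.0117 and 0.0289. In whole brains more cells of a type and more RNA per cell cannot be told apart, and the part of these cells in the values of lncRNA:cherub was not tested.

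Genes of proteins linked to lncRNA:cherub by earlier work were measured too. Syp was at 1161 ± 246 CPM in WT against 1219 ± 167 CPM in TetAXXC. Imp, which encodes an RNA-binding protein expressed in opposition to Syncrip in neuroblasts, was at 45.0 ± 9.27 and 57.2 ± 16.2 CPM (SD, n = 3 each). brat, a differentiation gene whose loss gives neuroblast tumours, was at 1502 ± 166 and 1581 ± 79.9 CPM. None of the 3 passed the edgeR test, with adjusted p of 0.895, 0.441 and 0.742. Imp passed once replicate numbers were blocked (adjusted p = 0.0409).

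lncRNA:noe (FBgn0026197, chromosome 3L, 17400272 to 17401348, minus strand), an RNA described from the nervous system, had 1264, 1605 and 1146 counts in WT and 1011, 1347 and 956 counts in TetAXXC. The groups overlapped, since TetAXXC replicate 2 exceeded WT replicates 1 and 3, and replicate 2 was the highest in each group. Means were 72.9 ± 13.2 and 57.9 ± 9.63 CPM (SD, n = 3 each), and log2 of the fold was -0.34 with a standard error of 0.15 (edgeR, adjusted p = 0.195). Within the replicate numbers the ratios of TetAXXC to WT were close to each other, at 0.793, 0.783 and 0.809. In the fit blocked by replicate number it was lower, with an adjusted p of 8.85e-04. The gene blot, in which lncRNA:noe lies on the same strand, was at 68.3 ± 1.43 and 63.9 ± 3.03 CPM.

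lncRNA:Hsromega (FBgn0001234, chromosome 3R, 21296127 to 21317836, plus strand) is the heat shock RNA omega, which organises nuclear omega speckles that hold RNA-binding proteins. It had 4287, 5348 and 5287 counts in WT and 4989, 8603 and 5632 counts in TetAXXC. TetAXXC replicate 2 stood above all other libraries, and TetAXXC replicate 1 lay below 2 of the WT libraries. The means were 272 ± 39.9 and 336 ± 93.8 CPM (SD, n = 3 each). Log2 of the fold, 0.29 with a standard error of 0.19, did not exceed the replicate spread (edgeR, adjusted p = 0.421). Genes of omega speckle proteins found under the names searched were Hrb87F, Hrb98DE, sqd, nonA, Pep and Iswi. Of these 6, 0 passed the test, and log2 fold changes ran from -0.06 for nonA to 0.10 for Hrb87F.

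lncRNA:let7C (FBgn0263049, chromosome 2L, 18455717 to 18473132, plus strand) is the precursor of the microRNAs let-7, miR-100 and miR-125, which are switched on in metamorphosis. It had 194, 284 and 231 counts in WT and 191, 274 and 221 counts in TetAXXC. Replicate 1 was lowest and replicate 2 highest in each group. The means of 12.9 ± 2.69 and 12.002 ± 2.03 CPM (SD, n = 3 each) differed by less than the replicates did (edgeR, adjusted p = 0.785). Targets of let-7 family regulation, ab and chinmo, which encode transcription factors of neuronal identity in time, were measured as well. ab was at 86.2 ± 7.21 and 101 ± 6.60 CPM with an adjusted p of 0.150, and chinmo was at 101 ± 28.8 and 131 ± 34.1 CPM with an adjusted p of 0.471. Blocking on the replicate number gave 0.00518 for ab and 0.0148 for chinmo. lin-28, an inhibitor of let-7 processing, had 2 to 10 counts per library and was not tested.

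Including lncRNA:let7C and lncRNA:Hsromega, 6 members hold 10 microRNA genes on their own strand, and none of the 6 passed the test. The counts describe the long polyadenylated precursor, not the mature microRNA. lncRNA:CR31044 (FBgn0051044, chromosome 3R, 29214562 to 29219667, plus strand) holds mir-279 and mir-996. It had 103, 224 and 183 counts in WT and 89, 209 and 175 counts in TetAXXC. Replicate 1 was lowest and replicate 2 highest in each group, and the spread between replicates was far larger than the difference between genotypes, which was -0.18 in log2 with a standard error of 0.39. lncRNA:CR46004 and lncRNA:CR46006, which hold mir-276b and mir-276a on chromosome 3L, are neighbours. The first was at 5.01 ± 0.539 and 5.56 ± 0.788 CPM and the second at 28.2 ± 1.28 and 30.5 ± 6.04 CPM. lncRNA:CR46194 holds mir-281-1 and mir-281-2 and was at 15.5 ± 0.358 and 14.4 ± 0.389 CPM. Its groups did not overlap, but the edgeR adjusted p was 0.498. lncRNA:CR31451 shares exon bases with mir-9381 without holding it whole.

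lncRNA:CR42491, the 1 member with a small nucleolar RNA gene inside it, snoRNA:Psi18S-531, was at 48.5 ± 4.73 and 44.1 ± 2.47 CPM with an edgeR adjusted p of 0.348. Its exons overlap those of RpL22, a ribosomal protein gene, which was at 463 ± 21.0 and 457 ± 22.3 CPM. Neither differed beyond the spread between replicates.

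The other known lncRNAs that were found under lncRNA names were below the minimum. Nothing was found under such names for msa, bft, rncs and the Uhg host genes, so their level is not given. lncRNA:sphinx, linked to male courtship, had 2 to 15 counts per library, and lncRNA:iab8 of the bithorax complex had 1 to 4. lncRNA:yar had 0 to 2, lncRNA:flam, the precursor of piRNAs in ovarian somatic cells, had 0 to 2, and lncRNA:bxd had 0 to 1. lncRNA:CRG was at 0 in all 6 libraries. Its neighbour and target in earlier work, CASK, was at 299.9 ± 36.9 and 292 ± 25.4 CPM, with an edgeR adjusted p of 0.846.

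A different pattern was found in the 8 members called higher from a WT mean under 5 CPM. They were lncRNA:CR9284, lncRNA:CR32658, lncRNA:CR32652, lncRNA:CR32690, lncRNA:CR42767, lncRNA:CR32661, lncRNA:CR42850 and lncRNA:CR44455. Together they summed to 7.03 to 19.6 CPM in the WT libraries and to 77.04 to 248 CPM in the TetAXXC libraries. Log2 fold changes ran from 2.49 for lncRNA:CR32658 to 5.002 for lncRNA:CR32690, and adjusted p in the edgeR fit over all genes from 0.0167 to 0.0441. The sources used here state no function for them. Since they entered the list through their TetAXXC values and were grouped after those were seen, these p-values and calls are given as a description and support nothing.

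The most abundant of the 8 was lncRNA:CR9284 (FBgn0046297, chromosome 2R, 21803402 to 21804338, plus strand). It had 96, 26 and 9 counts in WT replicates 1, 2 and 3 and 983, 437 and 369 counts in the TetAXXC replicates. Every TetAXXC library was far above every WT library, and replicate 1 was the highest of each group. lncRNA:CR32652 (FBgn0052652, chromosome X, 12411018 to 12412181, minus strand) had 57, 15 and 16 counts in WT and 788, 232 and 308 counts in TetAXXC. lncRNA:CR32661 (FBgn0030356, chromosome X, 11917806 to 11918678, minus strand) had 27, 1 and 3 counts in WT and 412, 113 and 153 counts in TetAXXC. Again replicate 1 was the highest of each group.

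lncRNA:CR42767 (FBgn0261835, chromosome X, 9557539 to 9558466, minus strand) had 31, 11 and 8 counts in WT and 438, 110 and 161 counts in TetAXXC. It lies 199 bases from Cubn on the same strand. Cubn, an endocytic receptor gene of nephrocytes, was at 69.7 ± 4.495 and 76.6 ± 4.98 CPM with an edgeR adjusted p of 0.314. lncRNA:CR42850 (FBgn0262097, chromosome 2L, 5379095 to 5381074, minus strand) had 29, 4 and 8 counts in WT and 336, 86 and 151 counts in TetAXXC. lncRNA:CR44455 (FBgn0265648, chromosome 2R, 23127604 to 23128077, minus strand) had 37, 4 and 6 counts in WT and 359, 75 and 127 counts in TetAXXC. In these 3 RNAs too the groups were far apart and replicate 1 was the highest in each.

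lncRNA:CR32658 (FBgn0040859, chromosome X, 12091264 to 12092272, plus strand) departed from this. It had 76, 62 and 92 counts in WT and 777, 273 and 298 counts in TetAXXC, so that in WT replicate 3 was the highest. Its WT mean of 4.18 ± 0.888 CPM (SD, n = 3) was the highest of the 8. It lies inside Ten-a, a teneurin gene of synaptic partner matching, on the same strand, and Ten-a was at 776 ± 143 and 791 ± 102 CPM. The ratios of TetAXXC to WT were 10.1, 4.11 and 3.14 for numbers 1, 2 and 3.

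lncRNA:CR32690 (FBgn0052690, chromosome X, 10204400 to 10205289, plus strand) had 20, 5 and 8 counts in WT and 652, 178 and 277 counts in TetAXXC. It lies within asRNA:CR44894, which is on the other strand and was at 3.09 ± 1.14 and 2.29 ± 0.481 CPM. The ratios of TetAXXC to WT for lncRNA:CR32690 were 32.3, 33.2 and 33.6. With 20, 5 and 8 counts in WT, counting error is larger than the differences between these ratios, so their closeness does not show an even rise.

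**Figure D4:**
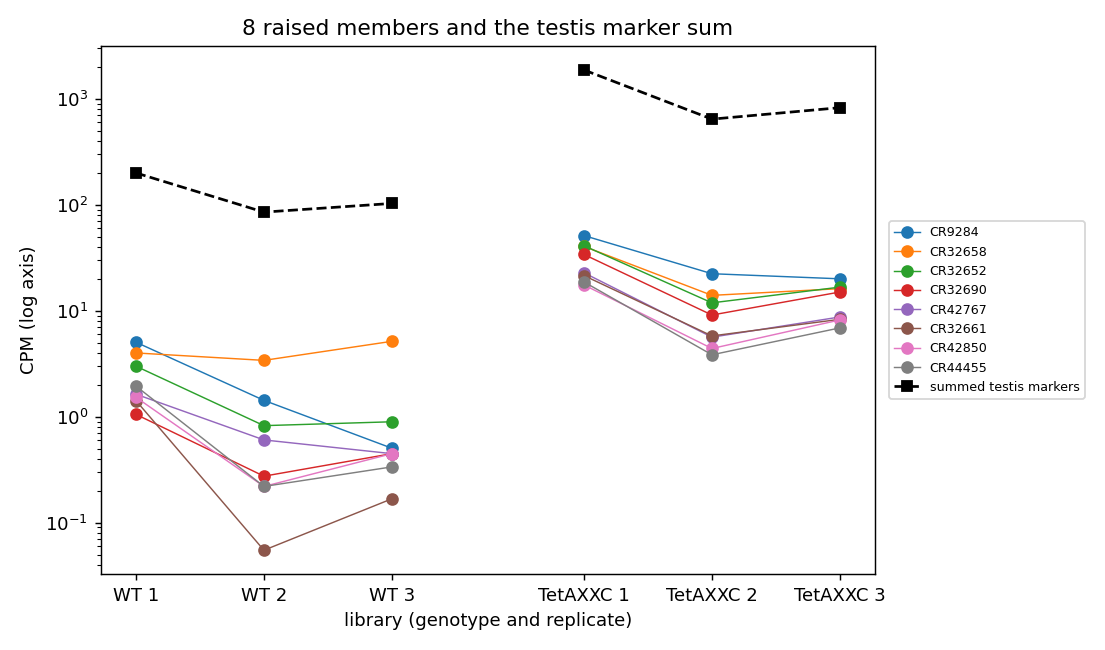
Level in CPM on a log axis in each library for the 8 members called higher from a WT mean under 5 CPM, with the summed level of 32 testis marker genes (black squares). Lines only join the values of 1 RNA within a genotype. TetAXXC replicate 1 holds the highest value of all 8 RNAs and of the testis markers.

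Testis marker genes were set beside these 8 RNAs across the libraries. The 32 markers summed to 200.3, 85.4 and 103 CPM in WT replicates 1, 2 and 3 and to 1878, 645 and 827 CPM in the TetAXXC replicates. The largest part of the WT sums was bol, with 1124, 601 and 1013 counts in the WT replicates. The order of WT replicates 2 and 3 in the sum therefore leans on that gene. Of 26 tested, 21 were higher and 0 lower, and in WT the marker comr was at 0 in every library. TetAXXC replicate 1 was the highest TetAXXC library in 8 of the 8 RNAs and in 14 of the other 54 members, against 38.5% of all genes tested. The 8 reached the member minimum through their TetAXXC values, those of replicate 1 among them. Their count is thus partly set by the rule and supports nothing. WT replicate 1 was the highest WT library in 7 of the 8 and in 12 of the 54, against 3612 of the 11198 genes tested. Several of these WT ranks rest on few counts, such as 27, 1 and 3 for lncRNA:CR32661. The level in TetAXXC replicate 1 was 2.29 to 4.88 times that in replicate 2 for the 8 RNAs, and 2.91 times for the testis sum. The part of testis RNA in these values was not tested. lncRNA:cherub and lncRNA:CR33938 had their highest values in replicate 3 of each group instead.

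Of the 8 RNAs, 5 lie on the X chromosome, which held 19 of the 62 members. They are short, with 474 to 1980 exonic bases, and 2 have a single exon. Nearby genes differed in what they did. Beside lncRNA:CR44455, Gpdh2 rose from 0.234 ± 0.108 to 3.18 ± 1.78 CPM with an edgeR adjusted p of 0.0167. It lies 527 bases away on the same strand and encodes a glycerol-3-phosphate dehydrogenase. lncRNA:CR43157, 447 bases from lncRNA:CR32661 on the same strand, rose from 0.107 ± 0.105 to 2.80 ± 1.41 CPM, with an adjusted p of 0.0173. CG2574, 1193 bases from lncRNA:CR32652 on the other strand, rose from 0.196 ± 0.197 to 1.84 ± 1.43 CPM with an adjusted p of 0.0496. The nearest tested genes of the other 5, tpr, Ten-a, asRNA:CR44894, Cubn and nompC, did not pass the test.

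Calls for these 8 were lost without WT replicate 2 or without WT replicate 3, as were those of every other called member. Without WT replicate 2, adjusted p ran from 0.0816 to 0.135 and log2 fold changes from 2.35 to 4.66. Without WT replicate 3, adjusted p ran from 0.0683 to 0.133 and log2 fold changes from 2.64 to 4.81. The share of all genes called in those fits is not given here. lncRNA:CR32661 and lncRNA:CR44455 were also lost without TetAXXC replicate 1 or 3, and lncRNA:CR42850 without TetAXXC replicate 3. Under limma-voom none of the 8 passed, with adjusted p from 0.130 to 0.231.

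**Figure D5:**
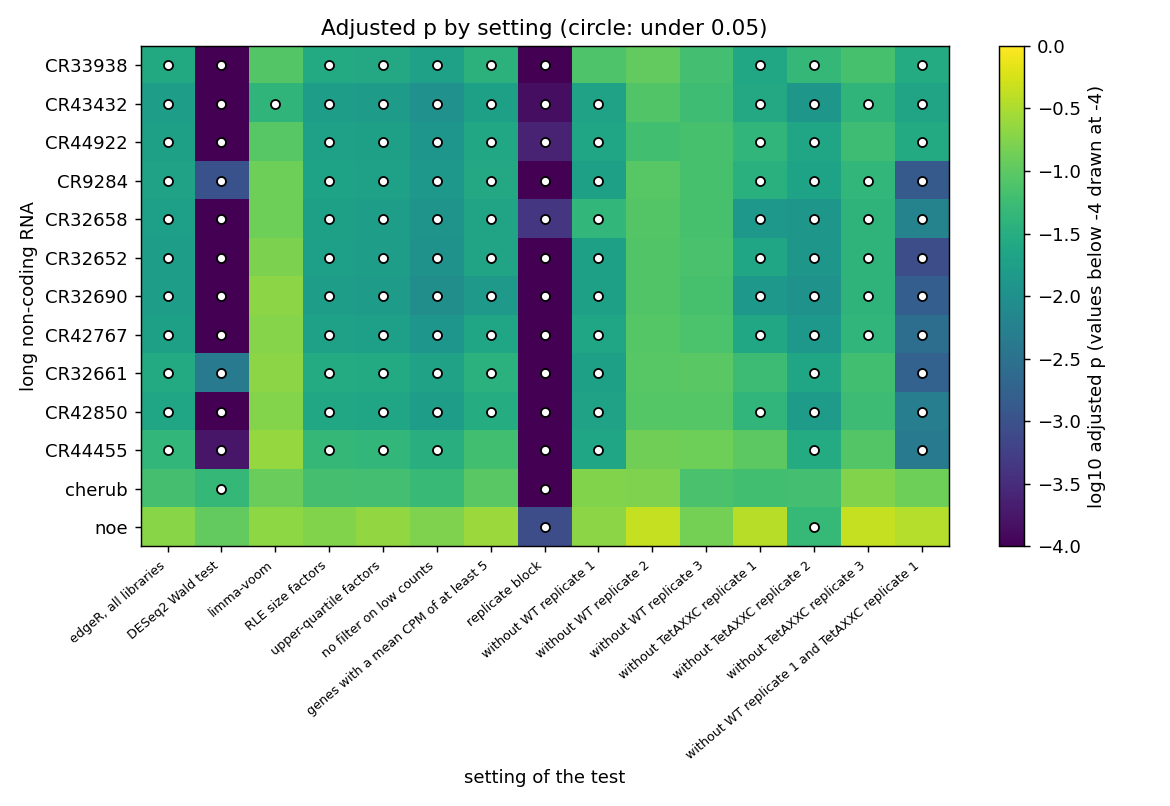
Adjusted p on a log10 colour scale for the 11 members that passed the test, and for cherub and noe, under each setting of the test; circles mark values under 0.05. No circle stands in the columns without WT replicate 2 or without WT replicate 3, and 13 stand in that of the replicate block.

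Pairing the libraries by replicate number, which the labels do not state, raised the number of members called from 11 to 18, against 21.1% of all genes. All 11 stayed, and 7 were added, 2 higher and 5 lower. Those added were lncRNA:cherub and lncRNA:CR31451, which were higher, and lncRNA:noe, lncRNA:CR43242, lncRNA:CR43126, lncRNA:CR34335 and lncRNA:CR45758, which were lower. lncRNA:CR31451 (FBgn0051451, lncRNA:mimi in the reference annotation, chromosome 3R, 23983503 to 23985065, plus strand) had 3509, 3107 and 3077 counts in WT and 3635, 4157 and 3625 counts in TetAXXC. Its groups did not overlap but lay close, at 176 ± 7.72 and 199.8 ± 11.9 CPM (SD, n = 3 each), with an edgeR adjusted p of 0.0695 and a blocked one of 0.0498.

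Of the 4 further members called lower in the blocked fit, lncRNA:CR43242 had the smallest adjusted p in the fit without pairing. It was at 22.0 ± 1.93 CPM in WT against 17.1 ± 1.93 CPM in TetAXXC (SD, n = 3 each), with an adjusted p of 0.0584 and a blocked one of 0.0194. lncRNA:CR43126 was at 18.7 ± 2.76 and 14.4 ± 1.11 CPM, with a blocked adjusted p of 0.0386. lncRNA:CR45758 was at 12.1 ± 1.87 and 8.34 ± 2.07 CPM, with a blocked adjusted p of 0.0146. In these 3 RNAs every WT library exceeded every TetAXXC library. lncRNA:CR34335, the RNA inside DIP-alpha, was at 16.6 ± 3.62 and 13.1 ± 2.69 CPM with overlapping groups, and had a blocked adjusted p of 0.0445.

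The other 44 members were called in neither fit. Their log2 fold changes ran from -0.48 to 0.31, 16 of them positive and 28 negative, with standard errors from 0.04 to 0.39. The genotypes overlapped in 38 of them. They did not overlap in lncRNA:CR46064, lncRNA:CR46194, lncRNA:CR44506, lncRNA:CR44320 and lncRNA:CR44957, which were lower in TetAXXC, nor in lncRNA:CR45018, which was higher. Over all 62 members the groups were apart in 22 (35.5%), against 32.1% of all genes tested. Of those 22, 9 had a WT mean under 5 CPM and so had to be higher in TetAXXC. Among the 52 with a WT mean of at least 5 CPM the groups were apart in 13 (25%), 3 higher and 10 lower. lncRNA:CR44024 on chromosome 4 shows how close the values could be, with 2166, 2238 and 1975 counts in WT and 2145, 2249 and 2110 counts in TetAXXC.

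Summed without lncRNA:CR42862, the members were at 1595 ± 79.0 CPM in WT against 1847 ± 58.2 CPM in TetAXXC (SD, n = 3 each), a difference of 252 CPM. The 8 RNAs that rose from low levels made up 129.9 CPM of it, lncRNA:cherub 80.8, lncRNA:Hsromega 63.9 and lncRNA:CR33938 46.3 CPM. Those 8 reached the minimum only through TetAXXC and so had to add to the difference, which is therefore a description only. The remaining 50 members together contributed -69.5 CPM.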

How the data were processed

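The deposited table holds whole-number counts per gene for 3 WT and 3 TetAXXC libraries, with gene coordinates (BDGP6, dm6) and merged exon length. Per the submitters' processing notes, Trimmomatic 0.39, HISAT2, SAMtools, featureCounts and DESeq2 were used; the strand setting of counting is not given in the sources used here.

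CPM was computed from column sums. Genes were tested with edgeR 4.0.16 in R 4.3.3 (filterByExpr with a minimum count of 10, TMM, quasi-likelihood F test, Benjamini-Hochberg adjustment over 11198 genes, threshold 0.05), without pairing. The standard error is the size of the log2 fold change divided by the square root of F. Scripts were tested on simulated data. Alternatives were DESeq2 1.42.0, limma-voom (limma 3.58.1), other size factors and filters, a replicate block, each library left out, and other minimum levels for members.

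Same-numbered libraries of the genotypes deviated together (correlations of deviations from group means of 0.652, 0.419 and 0.343 over genes). Libraries of unlike number gave -0.51 to 0.23. Deviations within a group sum to 0, so these values are not independent of each other. The labels state no pairing and call the libraries independent replicates. The pairing was thus read from these same data, and the blocked fit is an alternative only. Replicate libraries differed by more than counting noise, but this need not hold for each member. The groups hold 3 libraries each, and for members with low counts counting error can be a large part of the spread.

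Members, gene lists (markers of 9 cell or tissue types, partner genes, known lncRNAs) and rules for naming genes were chosen with earlier results of these data known. Named genes were known lncRNAs, the 10 members highest per kb, called members with separate groups, those around the minimum, small RNA hosts, neighbours and partner genes. Neighbours are the nearest tested or overlapping genes. Members outside that rule were named after their values were seen. No sequences are printed.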

Additional observations from a re-analysis of the deposited data

How the results depend on the processing

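Leaving out 1 library at a time gave 0 to 13 called members, 0 to 9 higher and 0 to 4 lower. WT replicates 2 and 3 each brought the count to 0 when absent, and TetAXXC replicate 3 brought it to 6. The share of all genes called in those fits is not given here, so the losses cannot be read as particular to the members. The cause was not tested. limma-voom called 1 member, 0 higher and 1 lower, and 1.16% of all genes. With the replicate block 18 were called, 7 of them lower. DESeq2 called 12. A minimum of 10 CPM for members gave 6 called, 4 higher, and a minimum of 5 CPM over the WT libraries gave 3 called, 1 higher. Without WT replicate 1 and TetAXXC replicate 1, a choice made after the data were seen, 11 were called. The testis sums of the libraries that remained still differed, at 85.4 and 103 against 645 and 827 CPM. There the log2 fold change of lncRNA:CR42862 was 0.053 and that of lncRNA:CR45102 0.18. No called member changed direction under any alternative run. Of the 11 called, 36 of their values kept the call with 1 library left out and 30 lost it. Sign changes occurred among members with differences near 0. lncRNA:CR42862 had a log2 fold change of -0.0084 with DESeq2 and -0.0054 with RLE factors. With 1 library left out it ran from -0.027 to 0.032, lncRNA:let7C from -0.26 to 0.031, lncRNA:CR44024 from -0.088 to 0.00083 and lncRNA:CR45102 from -0.063 to 0.12. lncRNA:CR43943 ran from -0.073 to 0.41, lncRNA:CR46006 from -0.0058 to 0.25 and lncRNA:CR31044 from -0.46 to 0.11. With 3 libraries in each group, small differences in variable members such as lncRNA:CR31044 were not detectable.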
